A study of Rattus norvegicus with 15 samples.

Results

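Rat alveolar epithelial cells (AEC) after 8 days in culture (D8) were compared with such cells after 4 days (D4), to describe what still changed and what was level once the culture had moved away from the isolated type 2 (AT2) cell. The samples were chosen by their labels alone, as the 3 arrays of D8 and the 3 of D4, with the 3 arrays of day 6 (D6) as the point in between, which makes 9 of the 15 arrays of the series. All arrays held total RNA of AT2 cells isolated from male rats. Cells of D0 were taken at isolation, and those of every later day had differentiated in culture with nothing added to them. The D8 samples carry the label AT1-like, and those of D4 and D6 carry no such label. The labels used here give neither strain nor age, and they do not say whether the arrays of a day came from separate cultures or animals, so p-values measure only the spread between these arrays. RNA was hybridized to Illumina RatRef-12 BeadChips, which carry 22523 probes, 13793 of them with 1 gene symbol (13337 genes).

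Surfactant is made and secreted by AT2 cells, which are cuboidal, whereas gas crosses into the blood through type 1 (AT1) cells, which are wide and thin. Plated AT2 cells flatten, stop making surfactant proteins and take up AT1 genes such as aquaporin 5 and podoplanin, and this culture is a common model of how the alveolus repairs itself. Genes of mitosis are transcribed mainly in cells that are about to divide, so that their level in a culture is commonly read as a sign of how many cells divide.

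Slide 1 held 2 arrays of each of the 3 days, the third array of D4 lay on slide 2, and the third arrays of D6 and D8 lay on slide 3. Where 3 values of a day are given, the first 2 are from slide 1, in the order of their positions (E and K for D4, A and B for D6, G and J for D8), and the third is from the other slide. Values are signals after variance stabilizing normalization (VSN) on a log2 scale, so a difference of 1 is 2-fold. A probe was counted as detected on an array at a detection p under 0.01, and 8387 to 9087 probes were detected per D8 array, 8156 to 9787 per D6 array and 8792 to 9555 per D4 array. Over these 9 arrays slide group (slide 1 against slides 2 and 3) took 55.3% of the variance and day took 19.8%, for probes detected on all 9. Slide group was therefore a term of the limma fit, which ran on all 15 arrays. On slide 1, D8 and D4 were compared within 1 slide, while outside it day and slide cannot be told apart. The number of arrays limited the precision, and half-widths of the 95% confidence interval of the D8 minus D4 difference had a median of 0.41 for probes detected on all 9 arrays and of 0.60 for the others.

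Few probes passed the threshold for a change between D8 and D4, and most that did were lower at D8. With limma p-values adjusted over the whole array and a threshold of 0.05, 4 probes were higher (0.0178%) and 45 were lower (0.2%), which are 3 and 36 named genes. The lower ones changed by -2.74 to -1.05, 11 of them not detected on any D8 array, and the higher ones by 1.11 to 1.40. By comparison 5887 probes (26.1%) passed in the same fit for D4 minus D0 and 922 (4.09%) for D4 minus D2, comparisons that share the D4 arrays with D8 minus D4. At an unadjusted p under 0.05, 719 probes were higher and 1023 lower at D8 (7.73% together). Each of the 45 lower probes was lower on both D8 arrays than on both D4 arrays of slide 1, and lower on the D8 array of slide 3 than on the D4 array of slide 2. Over all probes 12.2% lay below in this way and 11.4% above. The change of these 45 was -2.58 to -0.99 within slide 1 and -3.14 to -0.84 between the other slides. Without the D4 array at position K or the D8 array at position J, 2 probes were called lower in each case, without the D4 array of slide 2 there were 4, and the sign of all 45 stayed negative in each fit. Without the slide term no probe passed (967 at an unadjusted p under 0.05), and with only probes detected on at least 3 arrays 33 passed as higher (0.321% of 10269) and 168 as lower (1.64%).

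**Figure D1:**
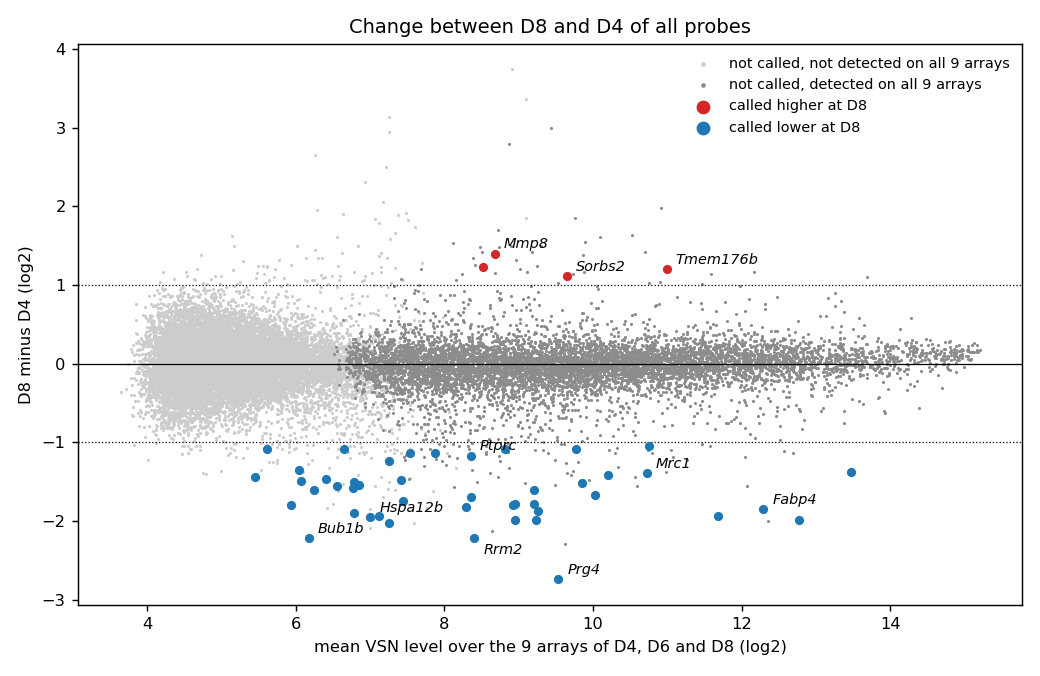
D8 minus D4 difference of each probe (log2, vertical axis) against its mean VSN level over the 9 arrays of D4, D6 and D8 (log2, horizontal axis). Grey points did not pass, red points are the 4 probes called higher and blue points the 45 called lower at an adjusted p of at most 0.05, and dotted lines mark a 2-fold change. Prg4 lies lowest at -2.74, and most points lie between the dotted lines, with a few uncalled ones above them.

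Genes of mitosis formed the largest group among those that fell. Of 21 measured members of a list of G2/M genes, 10 were called lower at D8 and none higher (background 0.2% and 0.0178%). Within slide groups 20 of the 21 lay below (background 12.2%). The median difference of the 21 was -1.45, against 0.01 over all probes. Of the 21 members 7 were detected on no D8 array, and with signals under the lowest detected signal of an array raised to it the median was -1.22. Bub1b, a kinase of the spindle checkpoint, had levels of 7.51, 7.44 and 6.68 on the D4 arrays, 6.90, 6.12 and 5.98 on the D6 arrays and 5.24, 4.55 and 5.17 on the D8 arrays. The 3 D8 values lie below each D4 and each D6 value, and the change was -2.22 (95% confidence interval -2.83 to -1.62, limma adjusted p = 0.00816). Bub1b was not detected on any D8 array, so the fall is at least 1.72-fold when signals under the lowest detected signal of an array are raised to it. The related checkpoint kinase Bub1 (at least 2.57-fold, adjusted p = 0.00457) and the mitotic kinase Plk1 (at least 2.20-fold, adjusted p = 0.0459) were also detected on all D4 arrays and on no D8 array.

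Cdk1, the kinase that drives entry into mitosis, and its partner cyclin B2 (Ccnb2) stayed detected on all 9 arrays. Ccnb2 had 10.35, 10.75 and 9.47 on D4 arrays, 9.93, 9.36 and 8.56 on D6 arrays and 9.12, 7.86 and 7.67 on D8 arrays (change -1.98, adjusted p = 0.0176). Cdk1 had 10.52, 10.69 and 9.28 on D4 arrays, 9.92, 9.19 and 8.06 on D6 arrays and 9.32, 8.25 and 7.58 on D8 arrays (change -1.78, adjusted p = 0.0182). Every D8 value of Ccnb2 lies below every D4 value, while in Cdk1 the D8 array at position G (9.32) lies just above the D4 array of slide 2 (9.28), so that its days separate only within slide groups. The midzone protein Prc1, detected on all 9 arrays, fell by 1.70 (adjusted p = 0.0359). The motor protein Kif11, which pushes spindle poles apart (change -2.02, adjusted p = 0.0131), and the spindle assembly factor Tpx2 (change -1.94, adjusted p = 0.0202) were detected on all D4 arrays and on 1 D8 array each. The spindle protein Nusap1, detected on 2 D4 arrays and on no D8 array, fell at least 1.30-fold (adjusted p = 0.0182). The kinetochore protein Cenpf was called lower (adjusted p = 0.0351) but was detected on 1 D4 array and on no D8 array, so that no size is given for it.

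Other members of the list did not pass. Cyclin A2 (Ccna2) differed by -2.03 (95% confidence interval -2.98 to -1.07, adjusted p = 0.0961), the ubiquitin-conjugating enzyme Ube2c by -1.50 (adjusted p = 0.093) and Cks2, a subunit of CDK complexes, by -1.39 (adjusted p = 0.0608). Cyclin B1 (Ccnb1), whose probe was not detected on any of the 9 arrays, was the exception (difference 0.13). Over the probes detected on at least 3 arrays, 17 of the 21 members were called lower (background 1.64% of 10269 probes). Not every member was among these probes, and Cenpf, for one, was not. The D4 array at position K had the highest level of the 9 arrays in 18 of the 21 members, and without it none of the 21 passed (median -1.37), nor without the D8 array at position J (median -1.20). The median was smaller with the authors' normalized values (-0.88), with quantile normalization (-0.78) and with median scaling (-0.86).

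**Figure D2:**
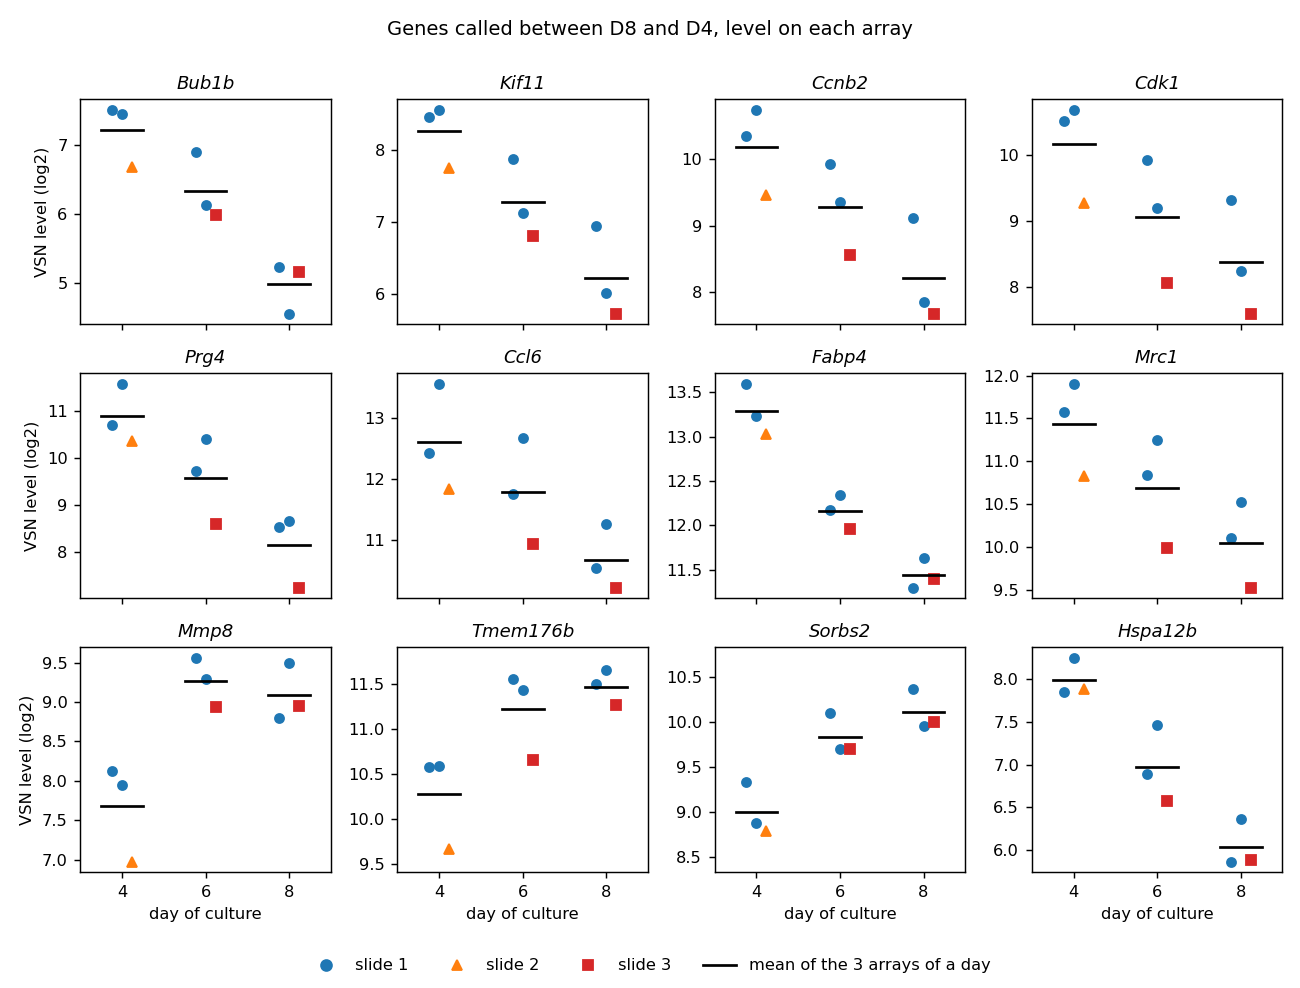
VSN level (log2) of 12 genes called between D8 and D4 on each array of day 4, 6 and 8, with 1 panel per gene. Circles are slide 1, triangles slide 2 and squares slide 3, and the bar is the mean of the 3 arrays of a day. Bub1b, Kif11, Ccnb2, Cdk1, Prg4, Ccl6, Fabp4, Mrc1 and Hspa12b step down at D6 and again at D8, while Mmp8, Tmem176b and Sorbs2 are higher at D6 and D8 than at D4.

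Promoters of many mitosis genes are known to carry CCAAT boxes, which bind the factor NF-Y, and a CHR element (TTTGAA), through which the DREAM complex holds such genes down in resting cells. RefSeq promoters (GRCr8) were at hand for 9 of the 10 called members, all but Tpx2, and the 250 bases before the gene start were searched on both strands. These 2 motifs share no overlap. CCAAT stood in 7 of the 9 (77.8%), against 34.9% of 10993 promoters of genes on the array, and TTTGAA in 3 of the 9 (33.3%), against 14%. Over all 17 members of the list with a probe and a promoter the shares were 82.4% and 41.2%, so that the called members carried neither motif more often than the list did. Shown here are the 150 bases before the start of a gene with both motifs close together (Ccnb2, chr8:79981659-79981808, minus strand), of another with both (Prc1, chr1:143659331-143659480, plus strand), of a gene with CCAAT only (Kif11, chr1:244536717-244536866, plus strand) and of one with neither (Bub1b, chr3:126016917-126017066, plus strand), to set the genes that fell beside their promoter letters. Capitals mark CCAAT and TTTGAA in either orientation.
Ccnb2: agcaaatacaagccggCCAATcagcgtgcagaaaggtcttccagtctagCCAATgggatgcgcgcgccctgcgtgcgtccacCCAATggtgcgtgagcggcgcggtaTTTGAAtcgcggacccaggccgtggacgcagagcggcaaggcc
Prc1: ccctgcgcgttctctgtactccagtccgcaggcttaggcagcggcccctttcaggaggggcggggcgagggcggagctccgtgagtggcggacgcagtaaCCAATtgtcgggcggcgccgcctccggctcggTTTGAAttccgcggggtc
Kif11: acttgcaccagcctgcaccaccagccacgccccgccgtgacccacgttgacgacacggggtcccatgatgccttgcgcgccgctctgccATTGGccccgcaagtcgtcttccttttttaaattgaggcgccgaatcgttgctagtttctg
Bub1b: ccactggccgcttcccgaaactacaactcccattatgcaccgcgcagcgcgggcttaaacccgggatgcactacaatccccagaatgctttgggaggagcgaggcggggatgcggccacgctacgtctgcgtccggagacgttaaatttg
Prc1 had CCAAT 50 bases and TTTGAA 18 bases before its start, and Kif11 had CCAAT 61 bases before it. Bub1b was called lower without either motif in this window. A match is a description of the letters and shows no binding.

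Of the genes of DNA replication few passed. Of 20 measured members of a G1/S list, 1 was called lower and 10 lay below within slide groups (background 0.2% and 12.2%), with a median change of -0.44. The called gene was Rrm2, the small subunit of the enzyme that makes deoxynucleotides. Rrm2 had 9.69, 10.27 and 8.73 on D4 arrays, 9.10, 8.45 and 7.33 on D6 arrays and 8.31, 6.81 and 6.93 on D8 arrays (change -2.21, adjusted p = 0.0203), and no D8 value reaches a D4 value. Pcna, the sliding clamp of DNA polymerases, averaged 12.78 ± 0.11 on D8 arrays and 12.97 ± 0.07 on D4 arrays (SD, n = 3 each), and its difference of -0.19 had an interval within 2-fold (-0.52 to 0.13). The helicase subunits Mcm2 (-0.47) and Mcm7 (-0.27) and the clamp loader subunit Rfc3 (-0.55) also had intervals within 2-fold. In all, 5 of the 9 members detected on all 9 arrays had such an interval, against 91.4% of all detected probes. Over the probes detected on at least 3 arrays, 3 members were called lower (background 1.64%), which were Rrm2, Mcm6 (-0.81, limma adjusted p = 0.0411) and Rfc4 (-0.67, adjusted p = 0.0296). Outside the lists, the replication genes Gins1 (at least 2.12-fold) and Pole2 (at least 1.89-fold) and the microtubule regulator Stmn1 (-1.61) were among the probes called lower. So were the kinetochore genes Spc25 (at least 2.995-fold), Cenpk (at least 2.025-fold), Ndc80 (at least 1.29-fold) and Kntc1 (at least 1.67-fold). Gins1, Spc25 and Cenpk were detected on 1 D8 array each, Pole2 on 2, and Ndc80 and Kntc1 on none. Of 11 measured D cyclins, CDK inhibitors and RB genes none was called in either direction (background 0.0178% higher and 0.2% lower). Cdkn3, by its name also a CDK inhibitor but outside this list, was called lower (change -1.82, limma adjusted p = 0.0313). It was detected on all 9 arrays. Cdkn2b, an inhibitor of Cdk4 and Cdk6, averaged 10.8 ± 0.68 on D8 arrays and 10.6 ± 0.63 on D4 arrays (it was not detected at D0), and Cdkn1b (-0.15) and Cdk4 (-0.13) lay within 2-fold as well.

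The largest change among the called probes belonged to Prg4, which encodes lubricin, a secreted lubricating glycoprotein. Its levels were 10.70, 11.58 and 10.37 on D4 arrays, 9.73, 10.40 and 8.59 on D6 arrays and 8.53, 8.66 and 7.23 on D8 arrays. No D8 value reaches a D4 value, and the fall was 6.69-fold (change -2.74, 95% confidence interval -3.34 to -2.14, adjusted p = 0.00191). Prg4 was 1 of 2 probes that passed in each of the 9 fits that left out 1 array, with adjusted p-values up to 0.0257. The other was ILMN_1369269, a probe with no gene symbol (change -1.98, adjusted p = 0.000538). Between D4 and D0, Prg4 differed by -0.17 (adjusted p = 0.718).

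Several genes of myeloid cells fell as well. Of 15 measured markers of macrophages and leukocytes, 2 were called lower (Mrc1 and Ptprc), none was called higher, and 9 lay below within slide groups (background 0.2%, 0.0178% and 12.2%), with a median change of -0.46. Mrc1, the mannose receptor of tissue macrophages, had 11.57, 11.90 and 10.82 on D4 arrays, 10.84, 11.25 and 9.98 on D6 arrays and 10.10, 10.52 and 9.52 on D8 arrays (change -1.39, 95% confidence interval -1.93 to -0.84, adjusted p = 0.0459). Ptprc (CD45), the phosphatase carried by all leukocytes, had 9.10, 9.54 and 8.33 on D4 arrays, 8.64, 9.03 and 7.11 on D6 arrays and 8.23, 8.43 and 6.79 on D8 arrays (change -1.17, adjusted p = 0.036). In Mrc1 the highest D8 value lies below the lowest D4 value, while in Ptprc the D8 array at position J (8.43) lies above the D4 array of slide 2 (8.33). Mrc1 passed in none of the 9 fits that left out 1 array (adjusted p = 0.0597 to 0.264) and Ptprc in 3 of them, though both kept a negative difference in each. Between D4 and D0, Mrc1 differed by 2.17 and Ptprc by 1.30. Fewer cells of a type and less RNA per cell cannot be told apart in these bulk samples.

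Other members of the list did not pass. Cybb, the oxidase subunit of phagocytes, differed by -1.13 (adjusted p = 0.22), Cd53 by -0.73 (adjusted p = 0.214) and Laptm5 by -0.72 (adjusted p = 0.35), while Lcp1 (-0.44) and Aif1 (-0.32) had intervals within 2-fold. The complement subunits C1qa, C1qb and C1qc were nominally higher at D8 (0.75, 1.17 and 0.93), each with an interval that spans 0. C1qb had 10.22, 8.79 and 10.16 on D8 arrays and 10.02, 7.91 and 7.75 on D4 arrays, so that both days hold arrays near 10 and arrays far below it. The signal summed over the 15 markers was 39260, 43510 and 38280 on D8 arrays and 61170, 73250 and 43680 on D4 arrays, and 12 of the 15 were detected on all 9 arrays. The macrophage receptor Marco was not detected on any of them. Of 11 lymphocyte markers, 7 endothelial markers and 6 erythroid markers, none was detected on all 9 arrays.

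Genes outside the list that are known from myeloid cells were among the largest falls. The chemokine Ccl6 had 12.41, 13.56 and 11.83 on D4 arrays, 11.74, 12.67 and 10.92 on D6 arrays and 10.54, 11.27 and 10.21 on D8 arrays (change -1.93, adjusted p = 0.0323). Fabp4, a fatty acid carrier of adipocytes and macrophages, had 13.60, 13.23 and 13.03 on D4 arrays, 12.18, 12.34 and 11.96 on D6 arrays and 11.29, 11.63 and 11.39 on D8 arrays (change -1.85, 3.60-fold, adjusted p = 0.0128). In both genes every D8 value lies below every D4 value, and in Fabp4 the 3 days do not overlap at all. The haematopoietic GTPase Rhoh (-1.41, adjusted p = 0.028), Mcemp1 (-1.67, adjusted p = 0.0246) and the haematopoietic adaptor Hcls1 (-1.13) were called lower too. So was Alox5ap, which serves leukotriene synthesis (at least 1.61-fold), though in none of the fits that left out 1 array. Alox5ap was detected on 2 D4 arrays and on 1 D8 array. The part of the marker sum in these changes was not tested.

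Other called genes belong to neither group. Upp1, which splits uridine, had 10.27, 10.75 and 9.56 on D4 arrays, 9.72, 9.63 and 8.47 on D6 arrays and 8.98, 8.55 and 7.45 on D8 arrays (change -1.87, adjusted p = 0.00816). Hspa12b, a distant member of the HSP70 family, had 7.85, 8.25 and 7.88 on D4 arrays, 6.89, 7.47 and 6.57 on D6 arrays and 5.86, 6.37 and 5.88 on D8 arrays (adjusted p = 0.028). Hspa12b was detected on all D4 arrays and on 1 D8 array, and with undetected signals raised as above its fall was 2.90-fold. Both genes stood lower on each D8 array than on any D4 array. Prkar2b, a regulatory subunit of protein kinase A, fell by 1.13 and was detected on 2 D8 arrays.

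Only 3 named genes were called higher at D8. Mmp8, the collagenase best known from neutrophils, had 8.13, 7.95 and 6.97 on D4 arrays, 9.56, 9.29 and 8.93 on D6 arrays and 8.80, 9.50 and 8.95 on D8 arrays (change 1.40, 95% confidence interval 0.88 to 1.92, adjusted p = 0.0351). Tmem176b, a membrane protein of the tetraspan type, had 10.58, 10.58 and 9.66 on D4 arrays, 11.56, 11.43 and 10.66 on D6 arrays and 11.50, 11.65 and 11.26 on D8 arrays (change 1.20, adjusted p = 0.0202). Sorbs2, an adaptor of the actin cytoskeleton, had 9.33, 8.87 and 8.79 on D4 arrays, 10.10, 9.70 and 9.70 on D6 arrays and 10.37, 9.96 and 9.997 on D8 arrays (change 1.11, adjusted p = 0.0488). In all 3 genes each D8 value lies above each D4 value. For Mmp8, D6 minus D4 was 1.58 and D8 minus D6 was -0.18. None of the 3 passed without the D4 array at position K, the D4 array of slide 2, the D8 array at position J or the D8 array of slide 3, and Sorbs2 passed in none of the 9 fits that left out 1 array.

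The D6 mean lay between the D4 and D8 means in each of the 45 lower probes and in 3 of the 4 higher ones. Over all probes this held for 41%, but the called probes were all chosen for the gap between D8 and D4. The median of the 45 was -0.83 for D6 minus D4 and -0.78 for D8 minus D6, and the first step made up 20.7 to 72.3% of the whole change (median 50.8%). Taken alone neither step passed for any probe (0% each). By limma, 1048 probes (4.65%) had an unadjusted p under 0.05 for D6 minus D4 and 966 (4.29%) for D8 minus D6, and the authors' normalized values gave 4 calls for the first step and none for the second. A contrast of the steps with each other (D8 minus D6 against D6 minus D4) also called no probe (0%), with 755 (3.35%) at an unadjusted p under 0.05. Of the 45 lower probes 27 had a higher mean at D4 than at D0, 21 of them called higher in that comparison, and 4 were called lower in it. Of all 22523 probes, 3296 were called higher and 2591 lower between D4 and D0. The 45 were chosen for being high at D4 beside D8, and both comparisons use the D4 arrays, so these counts are not independent of that choice.

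Most detected genes stayed close to their D4 level. Since a missed threshold does not show a level value, a probe was counted as stable when the 95% confidence interval of its D8 minus D4 difference lay within 2-fold either way. This held for 6954 of the 7605 probes detected on all 9 arrays (91.4%), and 28 others of these were called and 623 were neither. Within the narrower limit of 0.5 on the log2 scale lay 2803 (36.9%). The 8 named stable genes of the highest mean signal were Actb, Rplp0, S100a11, Fth1, Eef1a1, Calm2, Rpl23a and B2m, with changes of 0.05 to 0.24.

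No AT1 marker was called between D8 and D4. Over all probes 0.0178% were called higher and 0.2% lower, so a list of this size would seldom hold a called member. Of 18 measured markers 15 were detected on all 9 arrays, and 12 of these had an interval within 2-fold, a smaller share than the 91.4% of all detected probes. Within slide groups 5 of the 18 lay above and none below (background 11.4% and 12.2%). Aqp5, the water channel of AT1 cells, had 11.71, 11.55 and 11.07 on D4 arrays, 11.88, 11.60 and 10.30 on D6 arrays and 11.68, 11.92 and 10.72 on D8 arrays (difference -0.00, 95% confidence interval -0.46 to 0.46), after a difference of 3.10 between D4 and D0. Podoplanin (Pdpn) had 14.99, 15.08 and 15.04 on D4 arrays, 14.96, 15.04 and 14.96 on D6 arrays and 15.02, 15.09 and 15.17 on D8 arrays (difference 0.06, interval -0.27 to 0.39). The receptor Ager averaged 14.5 ± 0.41 on D8 arrays and 14.4 ± 0.25 on D4 arrays (SD, n = 3 each), and the homeodomain protein Hopx 14.8 ± 0.22 on D8 arrays and 14.7 ± 0.16 on D4 arrays. The days overlap in all 4 genes, and the third array of each day was the lowest of its day for Aqp5.

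Clic5, which anchors membranes to actin, differed by 0.11 after 4.32 between D4 and D0, and the basement membrane collagen Col4a3, not detected at D0, by 0.30. The sodium channel subunit Scnn1g (0.48, interval -0.04 to 1.00) was the member closest to the 2-fold limit. Wider intervals belonged to Cav2 (0.70, interval 0.04 to 1.37), Igfbp2 (0.69) and Spock2 (0.48), which were not called. Cav1, Rtkn2 and Col4a4 were not detected on all 9 arrays, and Cav1, the main protein of caveolae, was detected on 1 D8 array, 2 D6 arrays and 1 D4 array. The 15 markers were counted because they were detected on all 9 arrays. Their detection at D4, which has no AT1-like label, follows from that choice.

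**Figure D3:**
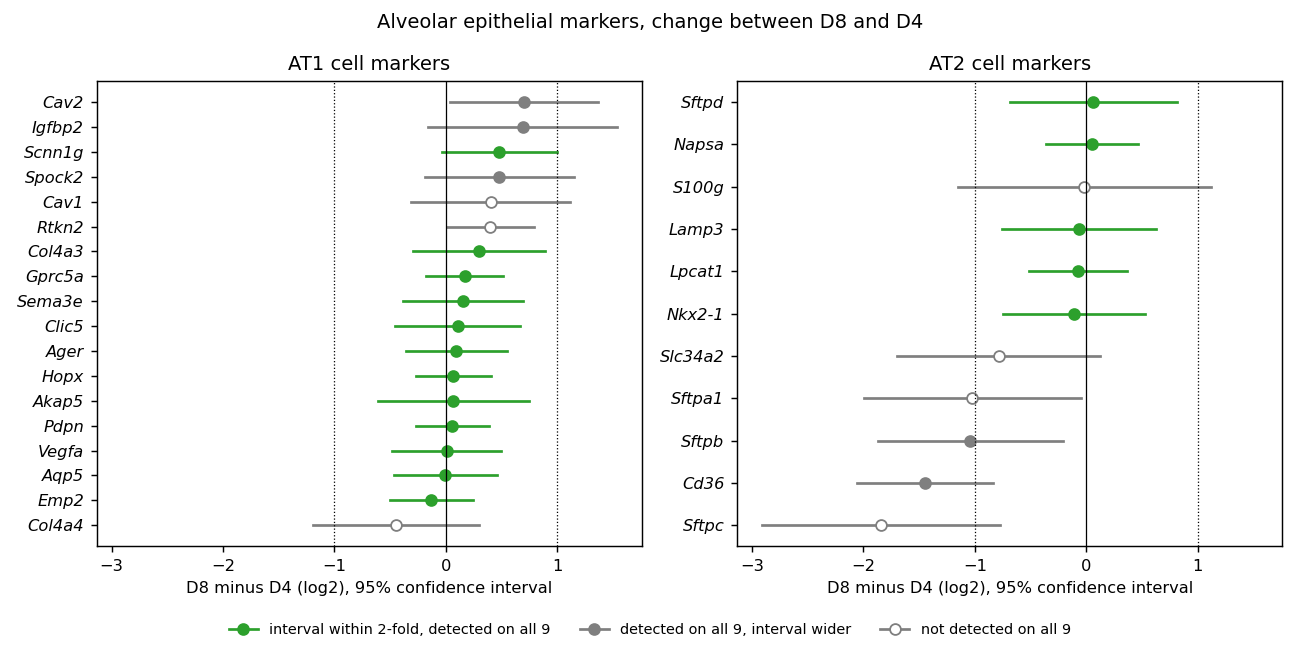
D8 minus D4 difference (log2) with its 95% confidence interval for each measured AT1 marker (left) and AT2 marker (right). Green intervals lie within 2-fold for genes detected on all 9 arrays, and open circles were not detected on all 9. Of the AT1 markers 12 are green, and Sftpc and Cd36 have the lowest values among the AT2 markers.

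Some AT2 markers were stable, while surfactant proteins C, B and A1 and the receptor Cd36 had intervals that reached beyond 2-fold. None of 11 measured members was called (background 0.0178% higher and 0.2% lower). Of the 7 detected on all 9 arrays, 5 had an interval within 2-fold (background 91.4%). These were the aspartic protease Napsa (0.05), the phospholipid enzyme Lpcat1 (-0.07), the lamellar body protein Lamp3 (-0.06), the transcription factor Nkx2-1 (-0.11) and surfactant protein D (Sftpd, 0.07). Surfactant protein C (Sftpc) had 7.94, 7.99 and 7.06 on D4 arrays, 5.94, 5.52 and 5.89 on D6 arrays and 5.45, 5.16 and 6.84 on D8 arrays. It was detected on all D4 arrays, on no D6 array and on 1 D8 array, that of slide 3. The Sftpc difference of -1.84 (95% confidence interval -2.91 to -0.77) did not pass (adjusted p = 0.204), and with undetected signals raised as above the fold was 2.23. Sftpc passed within slide 1 alone (adjusted p = 0.0046) and without the D8 array of slide 3 (adjusted p = 0.0428), in both cases against D8 arrays on which it was not detected. With slide as 3 levels, which kept all arrays, it passed as well (difference -2.49, limma adjusted p = 0.033). It passed in 3 of 24 alternatives. D4 minus D0 was -7.64.

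Sftpb and Sftpa1, the other surfactant proteins with wide intervals, did not pass either. Sftpb had 8.72, 8.55 and 8.85 on D4 arrays, 7.28, 7.26 and 8.299 on D6 arrays and 7.35, 6.73 and 8.91 on D8 arrays (difference -1.04, adjusted p = 0.461), and Sftpa1 differed by -1.02 (adjusted p = 0.605). In both genes the slide 1 arrays of D8 lie below those of D4, while the slide 3 array of D8 lies above the slide 2 array of D4. Cd36, a fatty acid receptor of AT2 cells and macrophages, had 11.55, 11.21 and 11.23 on D4 arrays, 10.71, 10.35 and 10.37 on D6 arrays and 9.86, 9.43 and 10.36 on D8 arrays (difference -1.44, adjusted p = 0.0606). Each D8 value of Cd36 lies below each D4 value, and it passed over the probes detected on at least 3 arrays (adjusted p = 0.0182). Of 12 measured genes of the Krt8 transitional state, all detected, 8 lay within 2-fold (background 91.4%), among them the keratins Krt8 (-0.02), Krt19 (-0.18) and Krt7 (-0.06), while the growth factor midkine (Mdk) differed by -1.24 (adjusted p = 0.197) and lay below in both slide groups. The tight junction protein Tjp1 (0.08), the adhesion molecule Epcam (0.12) and the intermediate filament gene Vim (-0.32) also lay within 2-fold.

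Several lists of housekeeping and identity genes lay within 2-fold, as did 91.4% of all detected probes, so that these shares are near the background. These were all 28 detected subunits of the respiratory chain and ATP synthase, all 26 detected proteasome subunits, all 33 detected ribosomal proteins, all 14 detected genes of cholesterol synthesis and uptake and all 11 detected lung epithelial transcription factors, where detected means on all 9 arrays. Lysosomal genes lay within 2-fold in 19 of 21. The ribosomal proteins had a median of 0.15 over 36 measured members, of which 15 lay above within slide groups (background 11.4%). None of the 36 was called (background 0.0178% higher and 0.2% lower). Among the transcription factors, Foxa2 (0.08), Gata6 (0.03), Cebpa (-0.24) and Sox4 (-0.36) were stable. Of 8 detected genes of sodium, chloride and water transport 7 lay within 2-fold, with the sodium channel subunit Scnn1a at 14.7 ± 0.16 on D8 arrays and 14.5 ± 0.09 on D4 arrays and the sodium pump subunit Atp1b1 at 14.0 ± 0.00 on D8 arrays and 13.7 ± 0.18 on D4 arrays (SD, n = 3 each).

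**Figure D4:**
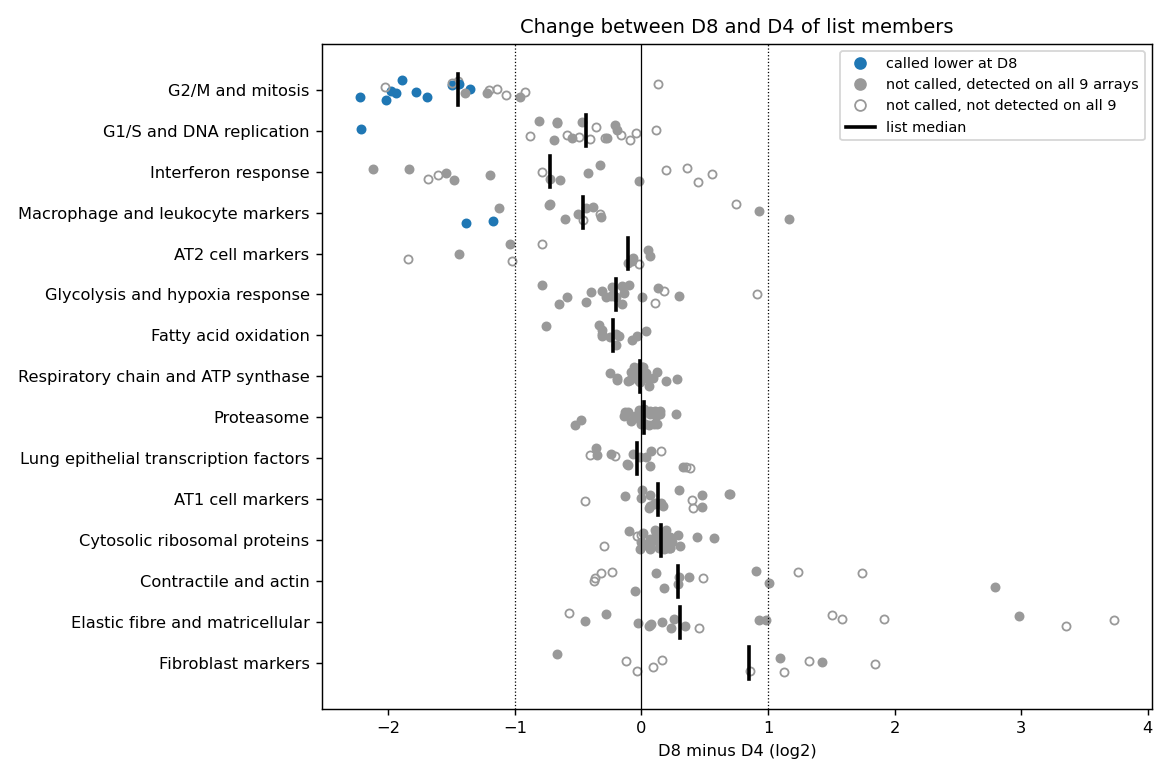
D8 minus D4 difference (log2, horizontal axis) of each measured member of 15 gene lists, 1 list per line, with the list median as a black bar. Blue points were called lower, filled grey points were not called and were detected on all 9 arrays, and open points were not detected on all 9. The G2/M list lies furthest to the left with a median of -1.45, and respiratory chain, proteasome and transcription factor genes lie close to 0.

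Genes of fibrillar matrix and contraction had high values at D8 without passing, and they differed strongly between arrays of the same day. The genes named in this paragraph were chosen after their values were seen. Periostin (Postn), a secreted matrix protein, had 8.66, 6.06 and 6.39 on D4 arrays, 11.16, 8.23 and 7.40 on D6 arrays and 12.83, 10.09 and 9.40 on D8 arrays (difference 3.74, 95% confidence interval 1.88 to 5.60, adjusted p = 0.121). The BMP antagonist gremlin (Grem1) had 9.07, 6.88 and 5.89 on D4 arrays, 11.26, 8.86 and 7.97 on D6 arrays and 11.92, 10.57 and 9.42 on D8 arrays (difference 3.36, adjusted p = 0.129). Each D8 value of both genes lies above each D4 value, but on every day the first slide 1 array stands well above the other arrays of that day. Elastin (Eln, 2.99, adjusted p = 0.206), smooth muscle gamma actin (Actg2, 2.79, adjusted p = 0.238) and the microfibril protein Mfap5 (1.92, adjusted p = 0.438) lay above within slide groups too. Aquaporin 1 (Aqp1), a water channel of endothelium and other cells, had 6.04, 5.28 and 5.33 on D4 arrays, where it was not detected, 9.08, 6.94 and 6.51 on D6 arrays and 10.41, 8.11 and 7.55 on D8 arrays, where it was detected on all 3 (adjusted p = 0.0555). Over the probes detected on at least 3 arrays Aqp1 (adjusted p = 0.0196) and Postn (adjusted p = 0.048) passed. The 3 D8 arrays, where both genes are high, are enough to bring either through that filter. These passes therefore add no support for their rise.

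Of 11 measured fibroblast markers none was called (background 0.0178% higher and 0.2% lower), and 2 lay above within slide groups (background 11.4%). The median was 0.85, with Col1a1 at 1.42 (adjusted p = 0.744) and Col3a1 at 1.85 (adjusted p = 0.559). The signal summed over these markers was 50940, 23480 and 11670 on D8 arrays and 26900, 7930 and 6411 on D4 arrays. The D8 array at position G was the highest of the 9 in 7 of the 11 fibroblast markers, in 14 of 21 genes of fibrillar collagen and crosslinking and in 14 of 20 elastic fibre and matricellular genes. Without it the median of the fibroblast markers was 0.54, and with the authors' normalized values it was 0.33. The part of this marker sum in the matrix values was not tested. Of the detected members 7 of 16 genes of fibrillar collagen and crosslinking and 6 of 13 elastic fibre and matricellular genes lay within 2-fold, against 91.4% of all detected probes. The crosslinking enzyme Lox (0.02), fibronectin (Fn1, 0.08), Sparc (0.07) and Ccn2 (0.16) were among these.

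**Figure D5:**
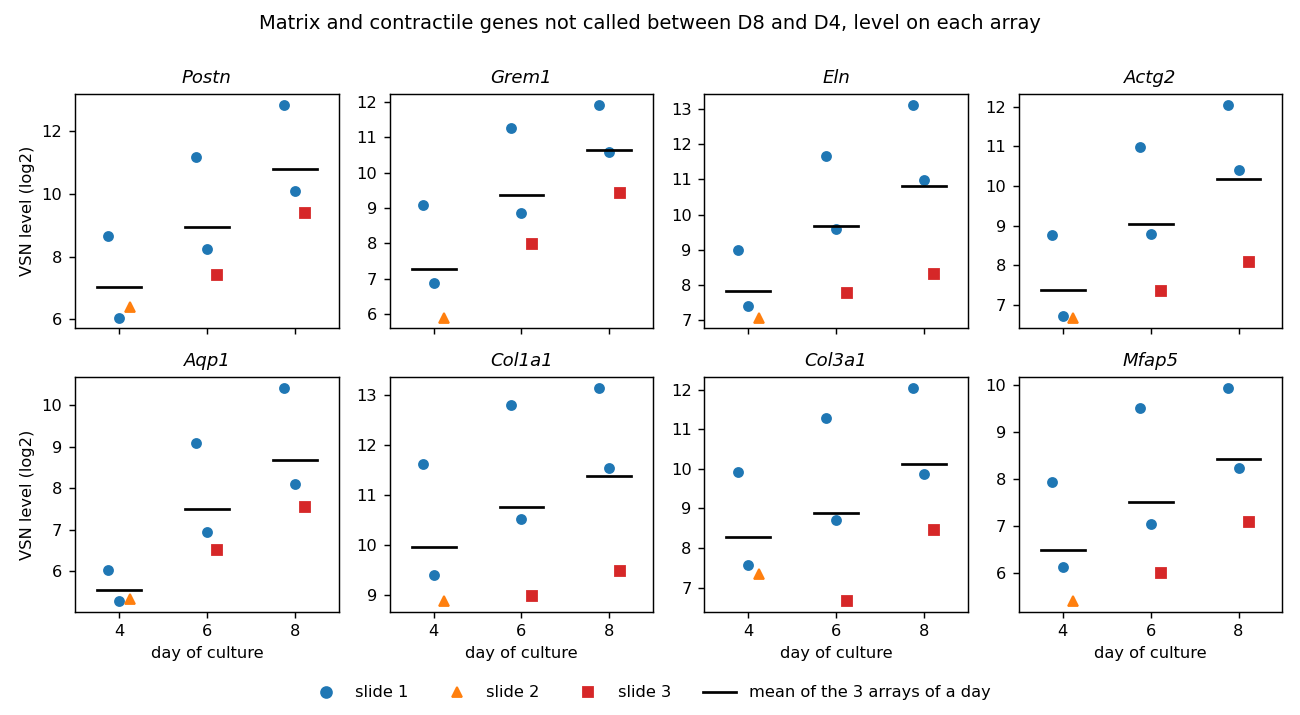
VSN level (log2) on each array of day 4, 6 and 8 of 8 matrix, contractile and water channel genes that were not called between D8 and D4. Circles are slide 1, triangles slide 2 and squares slide 3, and the bar is the mean of the 3 arrays of a day. Within each day 1 of the circles stands well above the other points, as for Postn at D8 with 12.83 against 10.09 and 9.40.

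Interferon response genes differed strongly between the D4 arrays. None of 17 measured members was called (background 0.0178% higher and 0.2% lower). Within slide groups 9 lay below (background 12.2%), and the median of the 17 was -0.72. Mx2, an antiviral GTPase, had 8.75, 11.19 and 8.54 on D4 arrays, 8.39, 9.61 and 9.19 on D6 arrays and 6.62, 7.82 and 7.68 on D8 arrays (difference -2.12, 95% confidence interval -3.48 to -0.76, adjusted p = 0.267). The D4 array at position K stands apart with 11.19, and it was the highest of the 9 arrays in 11 of the 17 members. Without it the difference of Mx2 was -1.32. The guanylate-binding protein Gbp2 differed by -1.19 (adjusted p = 0.0783) and passed over the probes detected on at least 3 arrays (adjusted p = 0.0219).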

How the data were processed

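RNA of 15 samples labelled D0 to D8 (3 arrays per day) was measured on rat BeadChips. The deposited raw file holds intensity per probe, read out by the authors in BeadStudio without normalization between arrays. The deposited detection p-values compare each probe with the negative controls of its array. The authors' normalized values are on a log2 scale, made per the methods by VSN through LUMI, with LIMMA in R 2.11.1, and served as an alternative. VSN was fitted anew to the raw signals of all probes by maximum likelihood (trimming quantile 0.9, 7 rounds, 5 slices). In R 4.3.3, limma 3.58.1 fitted 1 mean per day and a slide-group term to all 15 arrays, with moderated variances, no filter on dim probes and Benjamini-Hochberg adjustment over 22523 probes at 0.05. statmod 1.5.0 served the random block. Which purification an array came from could not be told, so purification and slide cannot be told apart.

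Symbols were updated through RefSeq for 13752 probes. A list gene was read on its probe of highest mean signal, and 713 of 860 symbols in 45 lists had one. Members and lists were chosen with earlier results of these data known. The genes named were up to 12 per direction with the largest changes among called probes detected on the brighter day and ordered alike within slide groups, up to 4 called and 4 stable members per list, markers the study names and the 8 brightest stable genes. Others named, including list members and genes that did not pass, were chosen after their values were seen. Folds of probes undetected on D8 arrays are lower bounds. The fit and the VSN step were tested on simulated data. Alternatives were other normalizations, filters, slide terms, subsets of arrays, moderation settings, thresholds and leaving out each array. Replicate numbers follow accession order and pair no samples.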

Additional observations from a re-analysis of the deposited data

How the results depend on the processing

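All 45 probes called lower kept a negative difference and all 4 called higher a positive one in the alternatives run, except that 2 of the lower probes were not tested under the filter at a detection p of 0.01. The number called depended on the setting. Against 4 higher and 45 lower probes, no slide term gave 0 and 0, slide as 3 levels 1 and 24, slide group as a random block 0 and 15, slide 1 alone 0 and 4, only the 9 arrays of D4, D6 and D8 0 and 15, and only the 6 arrays of D8 and D4 0 and 0. The authors' normalized values gave 43 and 141, neqc 24 and 82, log2 values with quantile normalization 44 and 133, and scaling to a common median 8 and 266. A filter on detection on at least 3 arrays gave 33 and 168 at a detection p of 0.01 and 22 and 141 at 0.05. eBayes with trend and robust set gave 31 and 163, no moderation 0 and 4, treat with a minimum change of 0.5 gave 0 and 2, an adjusted p of at most 0.01 gave 0 and 7, and a linear regression on day gave 1 and 61, with 28 of the 45 lower probes among those 61. Leaving out 1 array gave 0 to 3 higher and 2 to 41 lower probes, with 2 lower without the D8 array at position J or the D4 array at position K, and 4 without the D4 array of slide 2. The first step, D6 minus D4, had 4 calls with the authors' values and 1 with trend and robust set, and none otherwise. Within a bound of 0.5 instead of 1 on the log2 scale 2803 probes were stable instead of 6954. No paired analysis was possible because the replicate numbers come from accession order and pair no arrays. The cause of these differences was not tested.

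The precision was limited by 3 arrays a day. Of the 45 lower probes 11 were detected on no D8 array, where a fold is at most a bound.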

Other observations

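Metabolic genes had small differences that often ran one way within slide groups. Among 21 measured members of a list on glycolysis and hypoxia, 11 were lower at D8 on both slide groups, against 12.2% of all probes, and of 12 genes of fatty acid oxidation 8 were, with medians of -0.20 and -0.23. None of them was called (background 0.0178% higher and 0.2% lower), and the D4 array at position K was the highest of the 9 arrays in 11 of the 21. The phosphofructokinase subunit Pfkp differed by -0.79 (adjusted p = 0.214), and the kinases Pdk1, which restrains pyruvate oxidation, and Pdk4 by -0.65 and -0.75. The lipid droplet protein Plin2 (-0.71), the lipase Mgll (-1.04) and the desaturase Fads1 (-1.06) did not pass over all probes but passed over those detected on at least 3 arrays, with adjusted p-values of 0.0198, 0.0487 and 0.0137. Over the alternatives the adjusted p was 0.00285 to 0.452 for Fads1, and 0.0265 to 0.689 for Mgll.

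Under the same filter 33 probes were called higher, which held 1 of 20 genes of the unfolded protein and ATF4 response, 1 of 28 glutathione and antioxidant genes and none of 12 heat shock genes (background 0.321%). Atf4, the factor of the integrated stress response, had 12.29, 12.35 and 12.34 on D8 arrays against 11.64, 11.69 and 11.63 on D4 arrays (change 0.68, adjusted p = 0.0154), the quinone reductase Nqo1 changed by 0.58 (adjusted p = 0.0391), and Cars1, which charges a transfer RNA with cysteine, by 1.08 (adjusted p = 0.0194). The integrin subunit Itga11 (1.42) and gliomedin (Gldn, 2.31) passed in the same way. Of 8 measured airway markers the filter left 1 called lower (Scgb1a1) and 1 called higher (Tubb4b, 0.58, adjusted p = 0.0422), with a list median of -0.05. The secretoglobin Scgb1a1 had 12.29, 10.68 and 11.52 on D8 arrays against 14.01, 13.38 and 13.10 on D4 arrays (adjusted p = 0.0555 over all probes and 0.0182 under the filter), and the airway protease inhibitor Slpi differed by -1.29 (adjusted p = 0.0555 and 0.0148). The haemoglobin gene Hbb had 8.09, 5.19 and 5.05 on D8 arrays against 7.90, 6.28 and 10.41 on D4 arrays (adjusted p = 0.664). The genes of these paragraphs were chosen after their values were seen, and no explanation was tested for any of them.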
